A study of Mus musculus with 4 samples.

Results

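The genes described here encode 10 RNA-binding regulators of splicing in neurons, namely Celf1, Celf2, Celf4, Rbfox1, Rbfox2, Rbfox3, Nova1, Nova2, Elavl3 and Elavl4. The genes were chosen by name, with earlier results of these data known. Their data are all islands of BRG1/BRM enrichment that touched one of these genes or the 50 kb to either side of it. By this rule 66 of the 20966 islands of the KCl list and 0 of the 711 islands of the basal list belong to them, and no island counted for more than 1 gene. The islands came from ChIP-seq of wild-type mouse cortical neurons, taken from E16.5 embryos and kept for 6 days in vitro. One group received 50 mM KCl for 1 h, following tetrodotoxin (1 µM) and APV (100 µM), blockers of sodium channels and NMDA receptors, on day 5. The other was kept at the basal KCl level, and the labels do not say whether it received these blockers too. The J1 antibody binds BRG1 and BRM alike, the alternative ATPase subunits of the BAF chromatin remodelling complex, so their signals cannot be told apart. Each condition had 1 immunoprecipitated (IP) library and 1 input library, which leaves no replicate check and no test between the conditions.

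These proteins decide which exons enter a neuronal mRNA by binding short sequences beside them, and several also set mRNA stability or translation. CELF proteins bind GU-rich RNA, RBFOX proteins UGCAUG, NOVA proteins clusters of YCAY, and neuronal ELAVL (Hu) proteins U-rich and AU-rich stretches. Several of these genes are very long and use alternative promoters. BAF complexes move nucleosomes at promoters and enhancers, and their subunits are exchanged as progenitors become neurons.

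The promoters of Celf2 are shown first because the broadest of the 66 islands lies over one of them and their base composition differs. RefSeq (GRCm38.p6) lists 5 starts for Celf2, all on the minus strand. The windows run from 250 bases before to 50 bases after a start. Capitals mark CpG dinucleotides. Of the first 2 starts, which share bases, the outermost is shown.
Celf2, outermost start, chr2:7396149-7396448: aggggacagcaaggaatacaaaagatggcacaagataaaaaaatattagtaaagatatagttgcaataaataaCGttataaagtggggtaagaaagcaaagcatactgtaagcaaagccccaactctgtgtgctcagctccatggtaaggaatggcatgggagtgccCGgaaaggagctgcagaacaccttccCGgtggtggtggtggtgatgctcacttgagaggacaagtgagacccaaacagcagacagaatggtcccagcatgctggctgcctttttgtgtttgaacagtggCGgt
Celf2, 315 kb into the gene, chr2:7081253-7081552: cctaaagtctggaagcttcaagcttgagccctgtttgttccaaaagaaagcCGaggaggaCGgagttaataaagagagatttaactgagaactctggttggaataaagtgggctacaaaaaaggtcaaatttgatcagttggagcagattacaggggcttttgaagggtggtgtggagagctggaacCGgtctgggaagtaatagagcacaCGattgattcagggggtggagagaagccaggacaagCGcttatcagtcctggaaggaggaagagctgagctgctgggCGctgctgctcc
Celf2, 524 kb into the gene, chr2:6871986-6872285: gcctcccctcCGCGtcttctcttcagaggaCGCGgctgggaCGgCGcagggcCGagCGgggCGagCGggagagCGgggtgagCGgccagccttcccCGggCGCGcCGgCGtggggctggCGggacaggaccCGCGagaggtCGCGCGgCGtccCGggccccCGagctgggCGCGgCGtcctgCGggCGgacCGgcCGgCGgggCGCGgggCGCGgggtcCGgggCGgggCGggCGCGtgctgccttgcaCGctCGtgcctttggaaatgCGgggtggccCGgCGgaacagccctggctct
Celf2, 675 kb into the gene, chr2:6721613-6721912: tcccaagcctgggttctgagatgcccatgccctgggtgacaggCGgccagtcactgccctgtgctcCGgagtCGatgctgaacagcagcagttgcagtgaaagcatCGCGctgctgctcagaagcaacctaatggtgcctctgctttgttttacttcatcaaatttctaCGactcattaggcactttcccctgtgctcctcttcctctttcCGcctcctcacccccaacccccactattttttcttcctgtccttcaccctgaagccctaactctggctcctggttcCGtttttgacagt
The window at 524 kb held 48 CpG and 80.3% G or C. The outermost window held 4 CpG (46.7% G or C), the one at 315 kb held 6 (49.3%) and the one at 675 kb held 8 (54.0%). Over the 21262 windows of protein-coding genes in the table, the median was 13.0 CpG and 56.3% G or C.

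Each of the 10 genes had at least 1 KCl island in the gene itself, where 31.1% of all 21883 protein-coding genes did. Most genes of at least 100 kb had one there too, since the lower quartile of their density in the gene was 0.459 per 100 kb. With 50 kb to either side, the share over all genes was 59.4%. Long genes have more room for an island. Of protein-coding genes of at least 100 kb, to which 7 of the 10 belong, 88.5% had an island in this wider region, and of those under 100 kb 55.7% did. Having an island was therefore the rule for genes of this size. When the KCl list was shortened by p to its 711 strongest islands, the length of the basal list, 2 of the 10 genes (Celf2 and Rbfox1) had an island in the wider region, where 2.42% of all protein-coding genes and 11.2% of those of at least 100 kb did.

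In basal neurons 0 of the 10 genes had an island in the gene or within 50 kb. The share over all protein-coding genes was 2.93%, with 8.61% for genes of at least 100 kb and 2.23% for shorter ones. A count of 0 allows up to 0.422% of the 711 basal islands at these genes (3 islands, counting error only). In KCl they held 0.315% of the list. Because this share lies under the basal limit, a difference in share between KCl and basal was not detectable with a basal list of this length. The nearest basal island lay 983 kb from Celf2, 1282 kb from Celf1 and 1463 kb from Rbfox1, and at most 6770 kb from a member, at Elavl3. The median distance was 2701 kb for the members and 1931 kb over all protein-coding genes (interquartile range 776 to 4276 kb). No call does not show absence of BRG1/BRM, since no island of the basal list held fewer than 18 IP reads and none of the KCl list fewer than 20.

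Celf2 and Rbfox1, both longer than 500 kb, together held 42 of the 66 islands (63.6%). Celf2 alone had 27. Because number grows with gene length, density is given next. With 50 kb to either side, Nova2 had 3.59 KCl islands per 100 kb, Celf2 2.82, Celf4 1.86, Celf1 1.67 and Rbfox1 0.922. Elavl4 had 0.806, Elavl3 0.729, Rbfox2 0.607, Rbfox3 0.575 and Nova1 0.451. The median over all protein-coding genes was 0.924 for those of at least 100 kb (interquartile range 0.457 to 1.47) and 0.719 for shorter ones (0 to 1.39). All 3 CELF genes and Nova2 thus lay above the upper quartile of their length class. For Celf1 this rests on 3 islands, 1 of them in the flank and only 1.37-fold over control. The other members of at least 100 kb lay at or below the median of their class or, for Nova1, just under its lower quartile. Within the gene body alone, Celf2 had 2.68 islands per 100 kb and Celf4 2.53, again above the upper quartile of their class (1.70). Elavl4 had 1.35, Rbfox1 0.982, Rbfox2 0.872, Nova1 0.822 and Rbfox3 0.711, on both sides of the class median of 0.932 and all within the interquartile range of 0.459 to 1.70. The densities of Elavl3 (2.69) and Nova2 (2.54) in the gene body rest on 1 island each in genes of 37.1 kb and 39.4 kb. That of Celf1 (2.52) rests on 2 islands in 79.2 kb. With any island, a gene under 100 kb exceeds 1 per 100 kb, and thus the upper quartile of its class (0.5). For these 3 genes, lying above that quartile therefore says no more than that they had an island. These orders come from 1 library and have no replicate error.

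**Figure D1:**
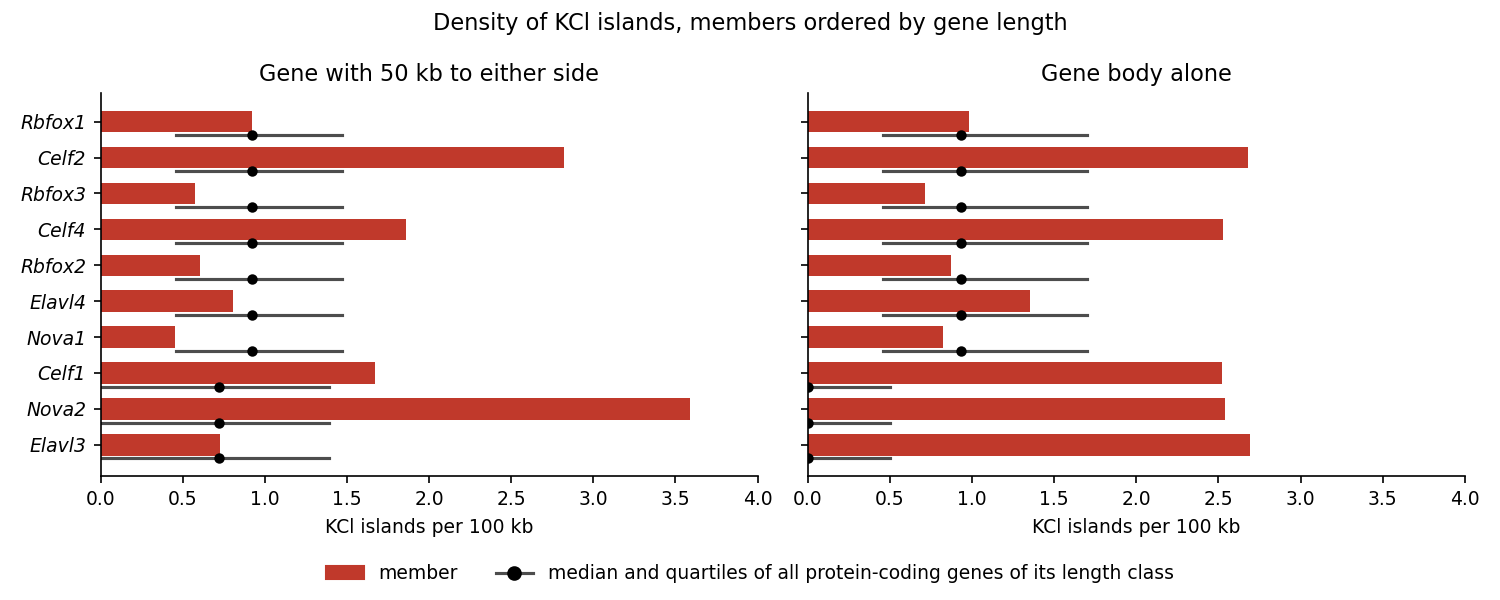
KCl islands per 100 kb for each gene (bars, longest gene at the top), with 50 kb to either side on the left and in the gene body alone on the right. Black points and lines give the median and quartiles over all protein-coding genes of the same length class (under 100 kb, or at least 100 kb), and Celf2 reaches 2.82 against a class median of 0.924.

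**Figure D2:**
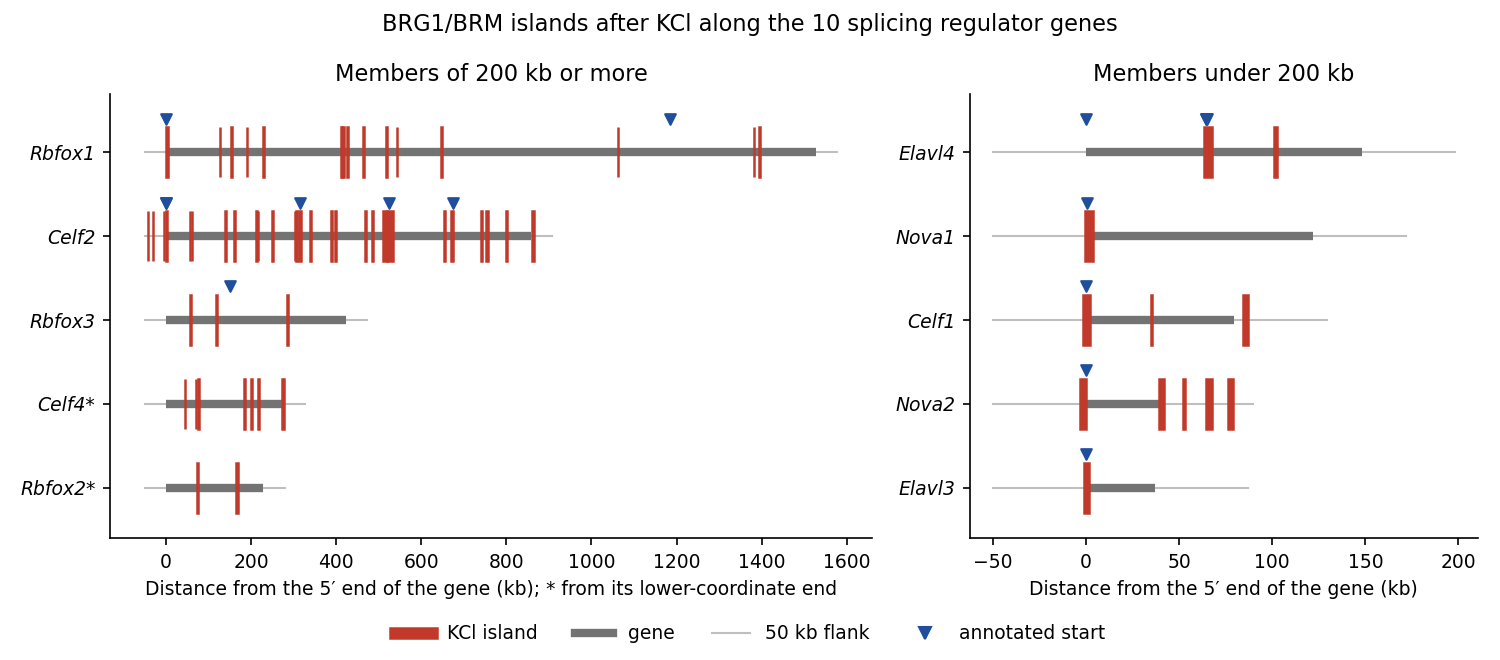
Positions of the 66 KCl islands (red blocks, widths to scale with a minimum line width) along the genes (grey bars) and their 50 kb flanks, in kb from the 5′ end, with annotated starts as blue triangles. Celf4 and Rbfox2, marked with an asterisk, run from their lower-coordinate end. Islands run along the whole of Celf2, while 12 of the 15 in Rbfox1 lie within its first 650 kb.

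Celf2, also known as CUGBP2, acts in splicing and in mRNA stability and is abundant in the forebrain. Its gene (chr2:6539694-7396341, minus strand, 857 kb) contained 23 islands and its flanks 4 more. Only 10 protein-coding genes had more KCl islands within the gene, where genes of at least 500 kb had a median of 8. Of the genes of at least 100 kb, 97.2% had a lower density than Celf2. The islands were 800 to 12400 bp wide with a median of 2200 bp, and covered 8.49% of the gene and its flanks. They were spread along the gene, with 6, 8, 4 and 5 in its 4 equal stretches of 214 kb from the 5′ end.

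The broad island of Celf2 spanned 12400 bp (chr2:6863801-6876200) with 416 IP reads and 129 control reads. This is 2.03-fold over control, with a 95% interval of 1.66 to 2.49. Such intervals here take IP reads as a binomial share of IP plus control reads (exact Clopper-Pearson) and cover counting error only. Islands were called from the same IP and control reads, so an interval above 1 is no separate support for an island. The broad island was the 25th widest of 20966 KCl islands. It was singled out with its breadth known, so this rank is description only. The CpG-rich start 524 kb into the gene lay inside it. A second island of 10400 bp (chr2:6877001-6887400) followed after a gap of 800 bp, with 319 IP and 111 control reads (1.81-fold, 1.45 to 2.26). The caller joined windows across gaps of at most 600 bp, so a slightly larger allowance would have made them 1 region of 23600 bp. Together they held 735 IP and 240 control reads (1.92-fold, 1.66 to 2.23). These were 28.0% of the IP reads in all Celf2 islands, on 28.1% of the bases that those islands covered. When islands less than 2 kb apart were joined throughout the list, this region ranked 11 by width among 20354.

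Breadth and height did not go together at Celf2. No KCl island held fewer than 20 IP reads, so narrow islands in the list have a higher minimum of reads per kb. The broad island held 33.5 IP reads per kb. The densest Celf2 island was the narrowest, 800 bp at chr2:7339601-7340400, with 47.5 IP reads per kb (3.98-fold, 1.67 to 11.5). The highest Celf2 fold belonged to an island of 1400 bp at chr2:6927201-6928600 (45 IP and 7 control reads, 4.04-fold, 1.81 to 10.6). The 6600 bp island (120 IP and 53 control reads) was 1.42-fold enriched and that of 6200 bp (180 IP and 78 control reads) 1.45-fold, with intervals whose lower ends were 1.02 and 1.11. The interval lay above 1 at 26 of the 27 islands. The exception had 41 IP and 15 control reads (chr2:6653601-6654800, 1.72-fold, 0.930 to 3.34).

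**Figure D3:**
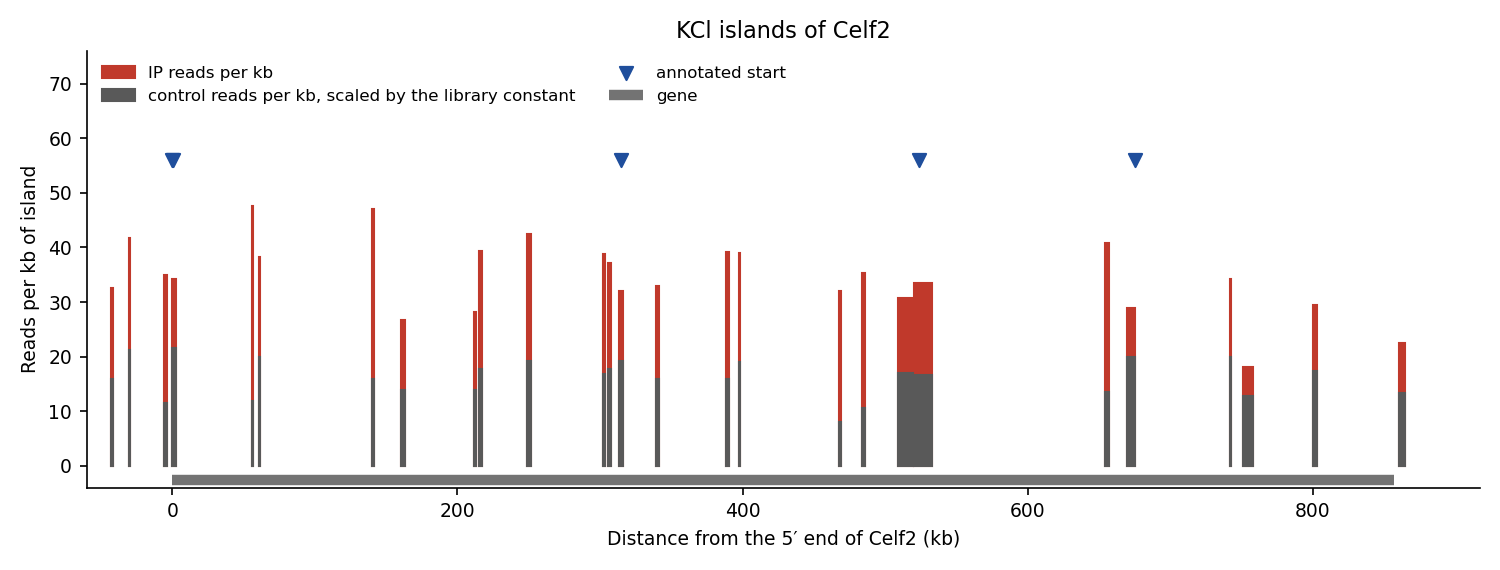
IP reads per kb (red) and, drawn in front, control reads per kb multiplied by the library constant (dark grey) in each of the 27 KCl islands of Celf2, against distance from its 5′ end in kb. Bars are as wide as the islands, triangles mark annotated starts, and the 2 broad islands reach 33.5 and 30.7 IP reads per kb, below the 47.5 of the densest narrow one.

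Every annotated start of Celf2 lay in a KCl island. The island over the outermost pair was 2800 bp wide (96 IP and 38 control reads, 1.59-fold, 1.08 to 2.38), and the one over the start at 315 kb was also 2800 bp wide (90 IP and 34 control reads, 1.66-fold, 1.11 to 2.54). The start at 675 kb lay in the 6200 bp island. The islands at the CpG-poor windows were thus narrower, and had lower folds, than the one at the CpG-rich window, though all 4 intervals overlap.

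The other CELF genes carried fewer islands. Celf1, a widely expressed member that also promotes decay of GU-rich mRNAs, had 3 (chr2:90940259-91019497, plus strand). An island of 3600 bp covered its start (73 IP and 25 control reads, 1.83-fold, 1.15 to 3.02). A 400 bp island inside the gene (chr2:90975201-90975600) had the largest fold of all 66, 20.1, from 32 IP reads and 1 control read. Its interval of 3.36 to 818 shows how little a single control read fixes that value. The third, 5.30 kb beyond the gene, was 1.37-fold enriched (0.857 to 2.25).

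Celf4, a neuronal member linked to excitability in mice, had 7 islands, all within the gene (chromosome 18, 25477620 to 25754520). The broadest spanned 6000 bp across the higher-coordinate end of the gene (169 IP and 57 control reads, 1.86-fold, 1.37 to 2.56). The highest fold was at an island of 2400 bp with 117 IP and 23 control reads (3.19-fold, 2.03 to 5.24). The island nearest the other end of the gene had an interval that included 1 (37 IP and 15 control reads, 1.55-fold, 0.830 to 3.04). The table of starts has entries for 8 of the 10 genes, and Celf4 and Rbfox2 are not among them.

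Rbfox1 is among the longest genes of the mouse genome and encodes a neuronal splicing factor that acts on synaptic and ion channel transcripts. The gene (chr16:5884793-7412480, 1528 kb, plus strand) had 15 KCl islands and its flanks had 0. Its density of 0.922 per 100 kb lay at the median of its length class, 0.924. The islands were narrower than at Celf2, 400 to 4400 bp with a median of 1400 bp. Spacing was uneven, with 5, 7, 1 and 2 islands in 4 equal stretches of 382 kb and an empty stretch of 414 kb.

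The highest folds of Rbfox1 belonged to 3 narrow islands. One of 1000 bp held 101 IP and 10 control reads (chr16:6310801-6311800, 6.34-fold, 3.31 to 13.6), and one of 600 bp held 34 and 2 (chr16:6075201-6075800, 10.7-fold, 2.74 to 91.7). The third, of 1400 bp, held 60 IP and 8 control reads (chr16:6011601-6013000, 4.71-fold, 2.24 to 11.4). All 3 lay in the first of the 4 stretches or just beyond it, far from an annotated start. The broadest, of 4400 bp, was 2.10-fold enriched (107 IP and 32 control reads, 1.40 to 3.22). The island of 4200 bp that began 8 bp downstream of the first start was among the weakest (84 IP and 39 control reads, 1.35-fold, 0.915 to 2.03). The second annotated start, 1185 kb into the gene, had no KCl island within 123 kb.

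Rbfox2 and Rbfox3 had 2 and 3 islands, and their densities lay below the median but within the interquartile range of their length class. Rbfox2, which regulates splicing in many tissues, had both of its islands in the gene (chr15:77078990-77308434). That of 4600 bp held 148 IP and 33 control reads (2.82-fold, 1.92 to 4.24), and that of 2200 bp held 77 and 27 (1.79-fold, 1.14 to 2.89). Rbfox3 encodes the antigen NeuN, a standard marker of mature neurons. It had 3 islands in the gene (chr11:118489760-118911597, minus strand), of 1000 to 2000 bp and 2.51-fold to 2.75-fold. The table holds 1 start for it, 151 kb into the gene, so starts at its outer end were not examined. The nearest island lay 31.0 kb from that start (68 IP and 17 control reads, 2.51-fold, 1.46 to 4.56). Rbfox3 was the only gene of the 8 in the table of starts with no KCl island within 2 kb of a start.

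The NOVA genes encode factors first known as autoantigens in paraneoplastic neurological disease, and differed in their surroundings. Nova1 (chr12:46697895-46819480, minus strand) had a single island, of 4200 bp over its start (99 IP and 31 control reads, 2.01-fold, 1.33 to 3.11). Nova2 (chr7:18925888-18965319, plus strand) had 5, of which 1 touched the gene. That island of 2600 bp lay across the 3′ end (59 IP and 15 control reads, 2.47-fold, 1.38 to 4.69). Another of 2800 bp ended 288 bp upstream of the start (79 IP and 31 control reads, 1.60-fold, 1.04 to 2.51).

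The other 3 Nova2 islands lay 12.9 to 36.7 kb downstream, and 2 of them inside the neighbouring genes Mypop (1.31-fold, 0.907 to 1.93) and Irf2bp1 (1.56-fold, 1.02 to 2.45). The remaining one, of 600 bp, lay in no annotated protein-coding gene and had the highest fold near Nova2 (35 IP and 6 control reads, 3.66-fold, 1.52 to 10.7). The high density around Nova2 is thus mostly that of its neighbourhood.

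The neuronal Hu genes each had an island at a start. Elavl3, which encodes HuC, had 1 KCl island (chr9:22015005-22052146, minus strand). It covered the start with 2600 bp, 63 IP and 19 control reads (2.08-fold, 1.23 to 3.68). Elavl4 encodes HuD, which stabilises mRNAs of growth-associated proteins. It had 2 islands in the gene (chr4:110203737-110351939, minus strand). One of 4400 bp (chr4:110284201-110288600, 143 IP and 44 control reads, 2.04-fold, 1.45 to 2.93) covered 3 internal starts 64.4 to 65.1 kb into the gene. The other, of 1800 bp and 3.61-fold (69 IP and 12 control reads, 1.94 to 7.33), lay 35.8 kb from these. The outermost start of Elavl4 had none within 63.3 kb.

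The covered and the uncovered start of Elavl4 are shown because only the internal one was marked. Capitals mark matches, on either strand, to a CArG box (the serum response element core) or to TGACG (the core of a cyclic AMP response element).
Elavl4, internal start 64.4 kb into the gene, chr4:110287462-110287761, minus strand, KCl island: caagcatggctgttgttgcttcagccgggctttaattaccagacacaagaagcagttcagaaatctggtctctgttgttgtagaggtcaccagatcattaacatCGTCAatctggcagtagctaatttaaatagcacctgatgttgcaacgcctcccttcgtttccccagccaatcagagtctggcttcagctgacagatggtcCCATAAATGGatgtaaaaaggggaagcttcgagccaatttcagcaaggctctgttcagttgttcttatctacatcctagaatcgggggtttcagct
Elavl4, outermost start, chr4:110351862-110352161, minus strand, no KCl island: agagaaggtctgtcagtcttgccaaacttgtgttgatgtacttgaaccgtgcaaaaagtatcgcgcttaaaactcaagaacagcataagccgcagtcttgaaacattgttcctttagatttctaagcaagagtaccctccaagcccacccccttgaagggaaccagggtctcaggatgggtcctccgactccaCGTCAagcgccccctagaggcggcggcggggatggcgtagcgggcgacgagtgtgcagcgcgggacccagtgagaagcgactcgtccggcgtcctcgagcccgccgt
The internal window held 6 CpG (46.0% G or C), a CArG box 46 bp before the start and TGACG 146 bp before it. The outermost window held 23 CpG (57.0% G or C) and TGACG 57 bp before the start, and no CArG box. At Elavl4 the island thus lay on the CpG-poor start, the reverse of the order of breadth at Celf2.

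Across the 16 annotated starts of the 8 genes, 13 had a KCl island within 2 kb, in 7 of the 8 genes. Over all protein-coding genes in the table this held for 24.2% of starts and 24.0% of genes. In basal neurons it held for 0 of the 8 genes and for 0.303% of all genes. With KCl islands of at least 2-fold alone, 4 of the 8 genes had one at a start, where 7.76% of all genes in the table did. The starts of 1 gene share its islands, since Celf2 gives 5 of the 13 and Elavl4 3. An island lay on the window itself at 12 of the 13, with Nova2 the exception. The 13 windows had a median of 51.7% G or C and 6 CpG, against 53.0% and 7 for the 3 without an island within 2 kb. Over all windows in the table, those with a KCl island within 2 kb had a median of 64.3% and 24 CpG, against 54.0% and 8 for those without. The members' median rests on several windows of the same genes. Without the 5 Celf2 windows it was 10 CpG. Taken by gene, the 13 windows held 34 CpG at Celf1, 29 at Elavl3, 17 at Nova2 and 14 at Nova1. Medians were 6 at Celf2 and 5 at Elavl4, the Rbfox1 window held 3, and the median over these 7 genes was 14.

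Motifs were searched on both strands of the 16 windows. TGANTCA, the AP-1 site, was found in 1 window, that of the Celf2 start at 315 kb, 35 bp before the start. It was present in 6.99% of all windows. The full cyclic AMP response element TGACGTCA was in 0 of 16 (2.23% of all) and its core TGACG, which the full site contains, in 3 (23.6% of all). The CArG box was in 2 overlapping Elavl4 windows, as 1 shared match (1.52% of all), and the MEF2 box in 0 (2.74% of all). All 3 TGACG windows were those of Elavl4, and 2 of these overlap. Such matches are descriptions of the sequence and not evidence of binding.

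Islands at the starts of these genes were broader and less enriched than the others. The 10 islands within 2 kb of a start of their own gene had a median width of 3900 bp and a median fold of 1.75 (range 1.35 to 2.08). The other 47 islands of the 8 genes had a median width of 1600 bp and a median fold of 2.29 (1.31 to 20.1). The same order held in the whole KCl list, where islands within 2 kb of an annotated start had a median of 2600 bp and 1.80-fold and the rest 1600 bp and 2.63-fold. It is therefore not a property of the splicing regulator genes alone.

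**Figure D4:**
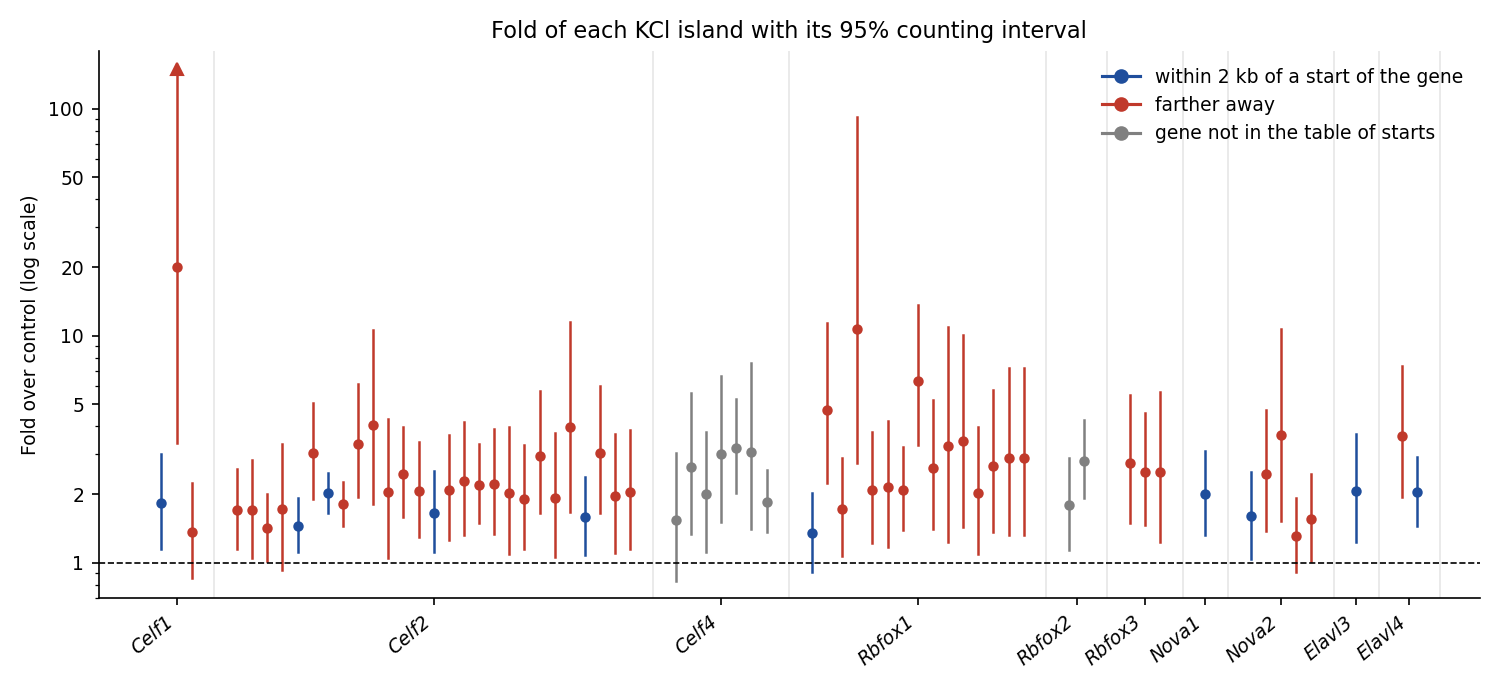
Fold over control (log axis) of each of the 66 KCl islands with its 95% interval, by gene and by coordinate within a gene; blue points lie within 2 kb of a start of the gene, red ones farther away, and grey ones belong to genes not in the table of starts. The dashed line is 1-fold, the arrow marks an interval that ends above the axis (818, at Celf1), and no blue point exceeds 2.08.

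As a set, the 66 islands were 1800 bp wide at the median, with quartiles of 1200 and 2800 bp, against 1600 bp (1000 and 2600 bp) for the 20900 other KCl islands. Their median fold was 2.10 (1.84 to 2.95), against 2.40 (1.84 to 3.39) for the others, and their median density was 33.9 IP reads per kb, against 35.0. The 57 islands inside the members had medians of 1800 bp and 2.20-fold. All 12107 KCl islands inside protein-coding genes had medians of 2000 bp and 2.15-fold, so both differences changed direction when islands inside genes were compared. A fold of at least 2 was reached by 45 of 66, where 66.6% of the KCl list did. Inside genes it was reached by 42 of the members' 57 islands and by 6947 of all 12107. Islands of at least 5 kb numbered 5 of 66, with 4 at Celf2 and 1 at Celf4, where 2.96% of the KCl list were as broad. All 5 lay inside the members, and 4.28% of KCl islands inside protein-coding genes were as broad. The interval lay above 1 at 61 of 66, where it did for 86.4% of the list. Both shares were favoured by the call, which used the same reads. Of the 5 exceptions, Celf1, Celf2, Celf4, Rbfox1 and Nova2 had 1 each.

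**Figure D5:**
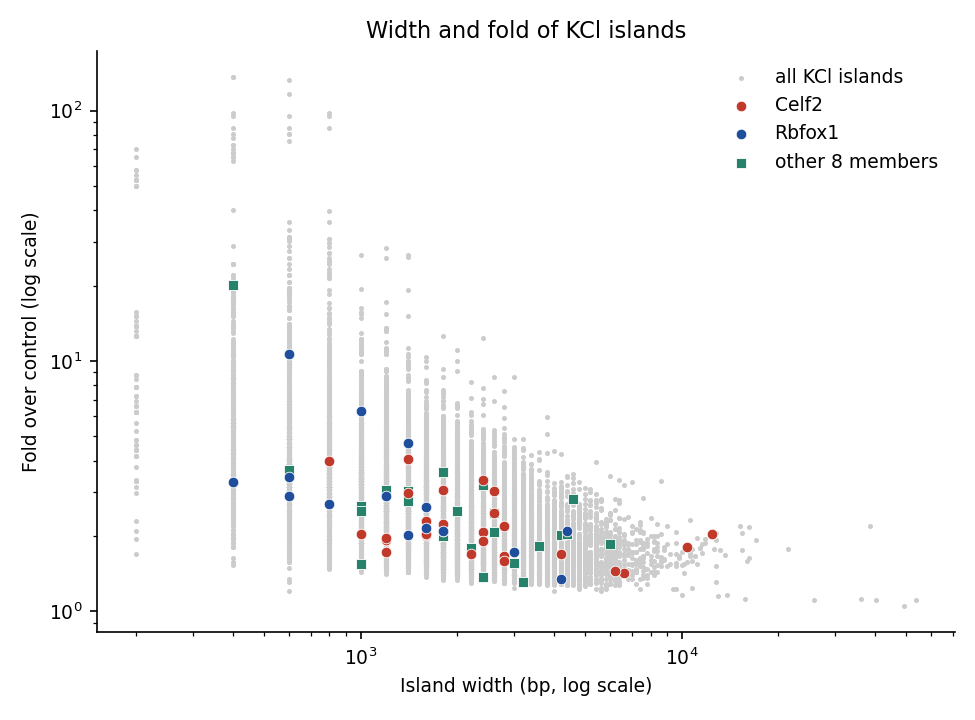
Width (bp) and fold over control of all 20966 KCl islands, both on log axes, with the islands of Celf2, Rbfox1 and the other 8 genes in colour. Celf2 reaches 12400 bp at 2.03-fold, and the highest folds, 20.1 at Celf1 and 10.7 at Rbfox1, belong to islands of 400 and 600 bp.

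Other splicing regulators also carried KCl islands. Of 51 further genes, 44 had a KCl island in the gene or within 50 kb (59.4% of all protein-coding genes), and 31 of the 43 in the table of starts had one within 2 kb of a start (24.0% of all). The 5 paralogs of the members, Celf3, Celf5, Celf6, Elavl1 and Elavl2, all had one at a start. Among the paralogs, Celf6 had 2.29 KCl islands per 100 kb, Elavl2 1.73, Celf3 1.69, Celf5 0.810 and Elavl1 0.712. The 7 genes with no KCl island in this region were Esrp1, Hnrnpc, Hnrnpm, Mbnl3, Srrm3, Srsf6 and Tial1, named after their values were seen. Basal islands lay in or near 3 of the 51 (2.93% of all genes), while the 10 members had 0.

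The whole lists held 1433200 IP and 400612 control reads in KCl islands, and 142021 IP and 130865 control reads in basal islands. The total depth of the libraries is not known here. Neuronal marker genes (Map2, Tubb3, Nefl, Snap25, Neurod6, Tbr1) had a KCl island in the gene or within 50 kb in 6 of 6 cases, oligodendrocyte lineage markers in 4 of 4, astrocyte markers in 3 of 4, microglia markers in 3 of 4 and interneuron markers in 2 of 5 (59.4% of all genes). At a start, neuronal markers had one in 4 of 4 cases in the table, oligodendrocyte lineage markers in 0 of 2, astrocyte markers in 1 of 3, microglia markers in 0 of 3 and interneuron markers in 0 of 5 (24.0% of all genes). Occupancy is not expression, so these counts do not give the makeup of the culture.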

How the data were processed

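Per the submitters' processing notes, reads were aligned with BWA (no version given in the sources used here) to mm10 (GRCm38), and SICER 1.0 called the islands. File names give its settings as 200 bp windows, gaps up to 600 bp and an FDR limit of 0.01. For each island the authors deposited raw counts of IP and control reads, a p-value, a fold (a ratio: IP over control reads, scaled by a constant of 1.59 for KCl and 0.880 for basal, found from the columns) and an FDR. Each list came from 1 IP library, not from pooled samples. Which input was the control is not stated in the labels.

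Islands were converted to 1-based positions and assigned to the 21883 protein-coding genes of RefSeq GRCm38.p6 on chromosomes 1 to 19, X and Y, with own code (Python 3.11.15, numpy 2.4.6, pandas 2.3.3, scipy 1.17.1) that gave the same counts as bedtools 2.31.1. An overlap of 1 bp sufficed. Starts, strands and sequences came from the RefSeq promoter table, which holds 8 of the 10 genes. Exons and introns were not told apart, since no transcript structure was used here. Fold intervals are 95% exact (Clopper-Pearson). They were tested on simulated counts at a single setting, without selection by a caller. That test does not cover called islands or those with very few control reads. Without molecular identifiers the intervals cover counting error only. With 1 library per condition no p-value is given between conditions. For each gene, the text names its broadest island, the one with the largest fold among those with at least 20 IP reads, those at a start, and any basal island; further islands named were chosen after their values were seen. The alternatives tried were other distances to the gene, a stricter FDR, a minimum fold, joined islands and a shortened KCl list. The genes and lists were chosen with earlier results of these data known.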

Additional observations from a re-analysis of the deposited data

How the results depend on the processing

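All 10 genes kept a KCl island, and 0 had a basal island, within 10 kb, in the gene body alone and at an FDR of at most 1e-05. The same held at a fold of at least 2, with fold intervals above 1 and without islands inside other genes. It also held with islands less than 2 kb apart joined. The FDR, fold and interval settings reuse the reads behind the calls, so they are no separate support. In the gene body, 31.1% of all protein-coding genes, which are mostly under 100 kb, had a KCl island. The basal share there, and both shares for the other settings named so far, were not computed, so those counts have no background. They therefore do not set these genes apart from others. With 50 kb to either side, 59.4% of all protein-coding genes had a KCl island and 2.93% a basal one. When the KCl list was shortened by p to the 711 islands of the basal list, 2 islands at 2 genes were left, the 12400 bp island of Celf2 and the 6.34-fold island of Rbfox1. That list reached 2.42% of all protein-coding genes, against 59.4% for the full list. How many genes have an island thus depends on the length of the list, for these 10 as for all genes. A cut of this size leaves most genes without an island, so the drop is not particular to the 10. With a fold of at least 2, genes with an island at a start fell to 4 of 8, against 7 without it (7.76% and 24.0% of all genes in the table of starts). No paired analysis was possible because each condition had 1 IP library. Density in the gene body alone moved by over 1.5 times for Celf1 (2.52), Nova1 (0.822), Elavl3 (2.69) and Elavl4 (1.35).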

Other observations

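Among the other splicing regulators, Khdrbs2, Mbnl1, Msi2 and Msi1 had the most KCl islands. Khdrbs2, which encodes the STAR protein SLM1, had 10 KCl islands within its 533 kb. Mbnl1 (muscleblind) and Msi2 (musashi) had 7 each in the gene or within 50 kb, and Msi1 had 6, of which 1 touched the gene.

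Khdrbs2 and Mbnl1 were also the genes of that list with a basal island inside the gene, and a KCl island overlapped it at both. At Khdrbs2 the KCl island (chr1:32631601-32633800) held 103 IP and 20 control reads, 3.23-fold with an interval of 1.99 to 5.51. The basal island inside it (chr1:32632401-32633200) held 37 IP and 7 control reads, 6.01-fold (2.64 to 16.0). At Mbnl1 the KCl island (chr3:60619801-60621000) held 97 IP and 8 control reads (7.62-fold, 3.72 to 18.1), and the basal island (chr3:60619401-60621000) held 41 and 25 (1.86-fold, 1.11 to 3.20). Near Hnrnpa1, a basal island of 2400 bp (1.80-fold, 1.12 to 2.91) overlapped no KCl island. How many of all basal islands overlap a KCl island is not given here, so these overlaps have no background. The folds of the KCl and basal lists are scaled by different constants, and which input served as control for each is not known here, so their sizes are not compared.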
